A study of Homo sapiens with 3 samples.

Results

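Immediate early genes are switched on within minutes of a growth signal or a stress, without new protein synthesis. The 10 genes described here are EGR1, EGR3, EGR4, NR4A1, NR4A2, NR4A3, KLF4, ARC, IER2 and IER3, chosen by symbol as immediate early genes outside the AP-1 subunits. Every probe set (a set of short probes read as 1 value on the array) that the platform annotation pairs with exactly 1 of these symbols was taken, which gave 21 of 41097 probe sets and 10 of 19775 genes. The cells were MDA-MB-231, a human breast cancer line of mesenchymal-like appearance generally regarded as lacking oestrogen receptor alpha. Treatment lasted 3 h and followed 4 h in medium whose serum (10%) had been stripped of steroids with charcoal. The data hold 1 array of cells given ERα17p, a peptide derived from the receptor, at 1 µM, 1 array of cells given estradiol at 1 µM, and 1 array of cells given the vehicle, 0.1% ethanol. No source used here names the peptide's solvent. The design asks how the peptide and the hormone affect early transcription.

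The EGR proteins are zinc finger transcription factors that bind GC-rich DNA, and the corepressors NAB1 and NAB2 hold EGR1 in check. The NR4A proteins are orphan nuclear receptors whose activity is set largely by how much of them is made. EGR1 transcription is classically driven by the ERK kinase cascade through serum response factor (SRF) and its ternary complex partners such as ELK1, which sit together on CArG boxes. NR4A genes are classically driven by cyclic AMP and calcium through CREB. Transcripts of this class decay quickly, so a level read after hours is a late sample of the response.

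The starts of EGR1, KLF4 and NR4A3 are shown because EGR1 and KLF4 were members that differed by at least 2-fold from vehicle and NR4A3 was the member that differed most between the treatments. The sequences are from RefSeq (GRCh38.p14), 250 bases before to 50 after each start, and lie at chr5:138465229-138465528 (plus strand), chr9:107489720-107490019 (minus strand) and chr9:99821635-99821934 (plus strand). Capitals mark CArG boxes (runs of 10 capitals) and the letters TGACG, the core of the cyclic AMP response element, on either strand (runs of 5 capitals).
EGR1: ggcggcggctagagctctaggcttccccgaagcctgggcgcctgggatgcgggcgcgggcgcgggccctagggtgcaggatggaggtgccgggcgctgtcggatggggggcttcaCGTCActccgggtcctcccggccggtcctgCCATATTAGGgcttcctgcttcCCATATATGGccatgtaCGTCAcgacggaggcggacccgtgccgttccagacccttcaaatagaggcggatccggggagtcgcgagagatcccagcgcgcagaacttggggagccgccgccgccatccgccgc
KLF4: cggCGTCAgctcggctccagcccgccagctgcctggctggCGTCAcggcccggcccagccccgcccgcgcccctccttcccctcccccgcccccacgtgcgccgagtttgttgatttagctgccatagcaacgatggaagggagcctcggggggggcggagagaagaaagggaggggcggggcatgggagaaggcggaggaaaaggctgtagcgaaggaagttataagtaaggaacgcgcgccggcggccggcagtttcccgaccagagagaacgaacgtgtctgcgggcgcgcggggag
NR4A3: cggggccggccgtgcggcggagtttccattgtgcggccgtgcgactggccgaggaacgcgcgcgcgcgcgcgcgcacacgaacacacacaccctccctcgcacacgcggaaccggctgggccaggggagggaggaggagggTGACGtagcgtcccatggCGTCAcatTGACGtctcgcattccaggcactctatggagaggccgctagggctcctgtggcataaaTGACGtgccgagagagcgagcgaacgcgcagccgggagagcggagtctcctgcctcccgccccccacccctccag
EGR1 held 2 CArG boxes, at -105 to -96 and -83 to -74 from its start. The letters GGAAG, an ETS core that ternary complex factors can bind, were beside them at -94 to -90 and -87 to -83, and farther off at -229 to -225. The ETS core at -87 to -83 overlaps the first base of the nearer CArG box. Of 35116 promoters of this length 1.29% held a CArG box, and among the members with a promoter here EGR1 was the single one to hold any. GGAAG is common, in 71.9% of all promoters and in 5 of the 6 members with a promoter here. NR4A3 held TGACG 4 times, and EGR1, KLF4 and EGR4 held it 2 times each and IER2 held it 1 time, against 24.6% of all promoters with at least 1 match. The letters GCGNGGGCG, an EGR binding site, were in the promoters of EGR1 (-198 to -190) and KLF4 (-189 to -181, overlapping a GGGCGG box) and in 9.43% of all promoters. The whole element TGACGTCA, in 1.85% of all promoters, and the NR4A site AAAGGTCA, in 1.22%, were in 0 of the 7 promoters read for 6 members. Those 6 were EGR1, EGR4, NR4A1 with 2 starts, NR4A3, IER2 and KLF4. The promoters of EGR3, ARC, NR4A2 and IER3 were not used here. Both strands were searched, and a match of letters is not a bound site.

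All values are log2 values that had been centred probe set by probe set, so 0 is a reference level that no source describes and a value says how far an array lay from it. No expression level, detection call or check of the cell line's defining markers can be had from such values. With 1 array per group there is no replicate error, no test and no p-value, and each difference describes these arrays. The vehicle array stood apart: the SD over all probe sets was 0.241 with ERα17p and 0.260 with estradiol, against 0.494 with vehicle. By gene median, 640 of 19775 genes lay at least 2-fold from the reference level on the vehicle array. On the ERα17p array 13 did, and on the estradiol array 30. Labelling spikes, bacterial RNAs added before labelling, were 2.04 and 2.03 higher on the ERα17p and estradiol arrays than on the vehicle array, while hybridisation spikes were at -0.93 and -0.74. Over all genes, 2.48% were at least 2-fold lower than vehicle and 3.34% higher with ERα17p, and 2.18% and 3.94% with estradiol. Of the markers of mesenchymal-like breast lines, 1 of 9 was at least 2-fold higher than vehicle under each treatment and 0 were lower. Of the luminal markers, 0 of 10 passed 2-fold under either treatment, and of the blood cell markers 0 of 4. Of 6 markers of fibroblasts and endothelium, 0 passed 2-fold with ERα17p and 1 was higher with estradiol. The part of these shifts in the results below was not tested.

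EGR1 and ARC were far lower, and KLF4 higher, on the treated arrays than on the vehicle array, while the NR4A genes lay within 2-fold of vehicle. On the ERα17p array 2 of 10 members were at least 2-fold lower than vehicle, against 2.48% of all genes, and 1 was higher, against 3.34%. On the estradiol array 2 were lower, against 2.18% of all genes, and 1 was higher, against 3.94%. EGR1, ARC and KLF4 were the members past 2-fold in each case. The members and the gene lists below were chosen with earlier results of these data known. A count beside the share of all genes is thus a description and not a test. The median over the 10 members was -0.30 for ERα17p and -0.52 for estradiol, beside 0.00 over all genes in both comparisons. The comparisons share the vehicle array, so they are not separate evidence. In bulk RNA, fewer cells expressing a gene and less RNA per cell cannot be told apart.

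**Figure D1:**
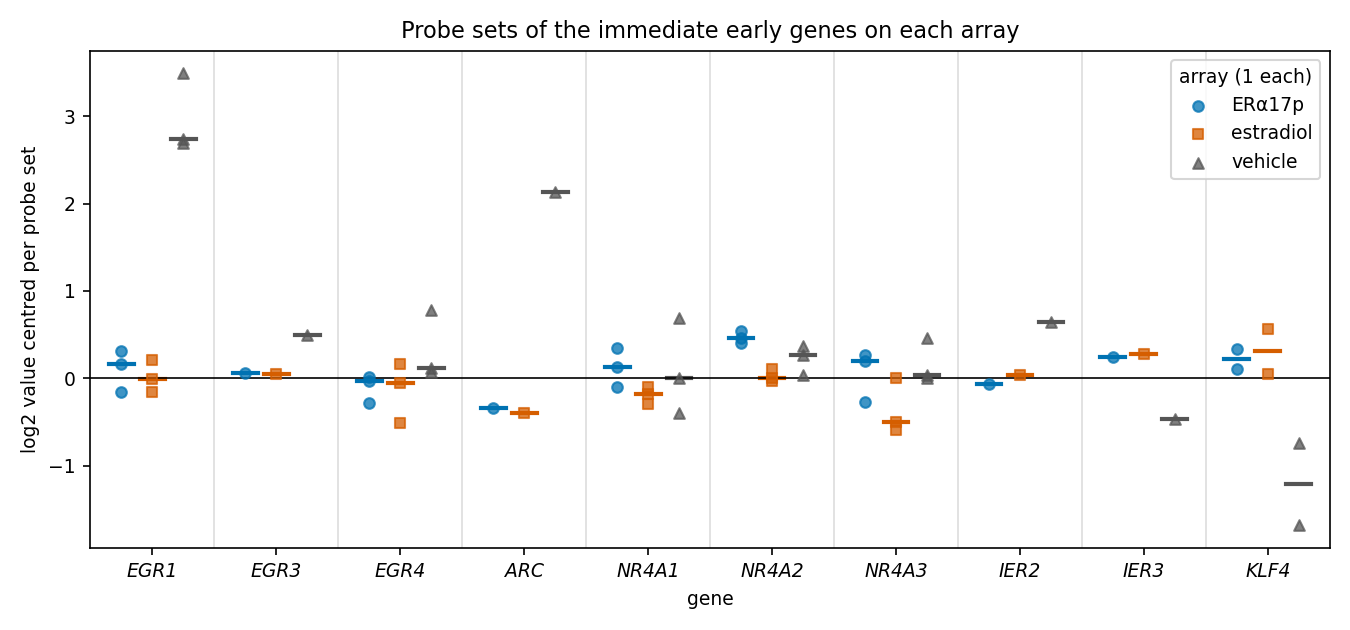
Log2 values centred per probe set (vertical axis) of the 10 genes on the ERα17p, estradiol and vehicle arrays, with a point for each probe set and a bar at the gene's median. EGR1 (2.74) and ARC (2.13) were high on the vehicle array alone, KLF4 (-1.21) was low there, and the medians of all 10 genes on the treated arrays lay between -0.49 and 0.46.

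EGR1, the best known factor of its family and a mediator of growth, stress and tumour suppressor programmes, has 3 probe sets, all with IDs in _s_at. Probe set 201693_s_at was at 0.32 with ERα17p and 0.21 with estradiol, against 2.69 with vehicle. Probe set 201694_s_at was at 0.16 and -0.16 on the ERα17p and estradiol arrays, against 2.74 on the vehicle array, and 227404_s_at was at -0.16 and -0.01, against 3.49. The vehicle array was thus the high one in every probe set, and the treated arrays lay close to each other and to the reference level. The median difference was -2.58 for ERα17p (5.96-fold lower) and -2.89 for estradiol (7.44-fold lower). These were the ninth and the fifth lowest values among 19775 genes. Of 5508 genes with at least 3 probe sets, 10 were at least 2-fold lower in every probe set with ERα17p and 11 with estradiol, EGR1 among them. After quantile normalisation of the deposited values, which pulls in the wide vehicle array, the EGR1 differences were -1.52 and -1.86, still past 2-fold. Relative to the reference level alone, EGR1 was at 0.16 with ERα17p and -0.01 with estradiol.

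EGR3 and EGR4, relatives with a closely similar DNA-binding domain, were also highest on the vehicle array, by much less. EGR3 was at 0.06 with ERα17p and 0.05 with estradiol, against 0.49 with vehicle, a difference of -0.44 in each case. The 3 probe sets of EGR4 were at -0.03, 0.02 and -0.29 with ERα17p and at -0.06, 0.17 and -0.52 with estradiol, against 0.07, 0.79 and 0.11 with vehicle. They differed from vehicle by -0.10, -0.77 and -0.40 on the ERα17p array and by -0.13, -0.62 and -0.63 on the estradiol array. Their medians were -0.40 and -0.62. The estradiol value passes 1.5-fold, but it was inside it after quantile normalisation (-0.35), after scaling to a common interquartile range (-0.49) and with the mean of probe sets (-0.46). All 7 probe sets of the 3 EGR genes were thus below vehicle under each treatment. Of all probe sets on the array, 49.2% were above vehicle with ERα17p and 48.5% with estradiol. EGR1 holds 3 of the 7, and probe sets of 1 gene are not independent. Of all genes, 28.4% lay as far from 0 as EGR3 with ERα17p and 28.3% with estradiol.

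ARC, which encodes a protein of neuronal synapses that forms virus-like capsids and whose gene is an SRF target in neurons, has 1 probe set. It was at -0.34 with ERα17p and -0.40 with estradiol, against 2.13 with vehicle. As for EGR1, the vehicle array alone was high. Far more genes lay at least 2-fold from the reference level on that array than on the treated ones. The differences were -2.46 for ERα17p (5.51-fold lower) and -2.52 for estradiol (5.74-fold lower), the tenth and the seventh lowest of all genes. With a single probe set, no second measurement on the array bears on this value.

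KLF4, a zinc finger factor of epithelial differentiation and stem cell identity, was the member at least 2-fold higher than vehicle. Probe set 220266_s_at was at 0.33 with ERα17p and 0.57 with estradiol, against -1.68 with vehicle. Probe set 221841_s_at was at 0.10 and 0.05 on the ERα17p and estradiol arrays, against -0.74 on the vehicle array. The vehicle array was the low one in both. The probe sets differed in size, at 2.01 and 0.85 for ERα17p and at 2.25 and 0.80 for estradiol, so that 1 of the 2 alone passed 2-fold. The gene's medians were 1.43 (2.69-fold higher) and 1.52 (2.87-fold higher), values that 1.24% and 1.16% of all genes exceeded.

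IER2 and IER3 went opposite ways, each with 1 probe set and each past 1.5-fold but not 2-fold. IER2, a small nuclear protein of early growth responses, was at -0.06 with ERα17p and 0.04 with estradiol, against 0.64 with vehicle. Its differences were -0.70 (1.63-fold lower) and -0.60 (1.51-fold lower). They were inside 1.5-fold after quantile normalisation, at -0.52 and -0.40, and the estradiol value also after scaling to a common interquartile range, at -0.49. IER3, a stress-inducible protein that modulates survival signalling, was at 0.25 with ERα17p and 0.27 with estradiol, against -0.46 with vehicle. Its differences were 0.71 (1.63-fold higher) and 0.73 (1.66-fold higher). At 1.5-fold, 3 members were lower and 2 higher on the ERα17p array, against 8.82% and 9.56% of all genes. On the estradiol array 5 were lower and 2 higher, against 8.42% and 10.6%.

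**Figure D2:**
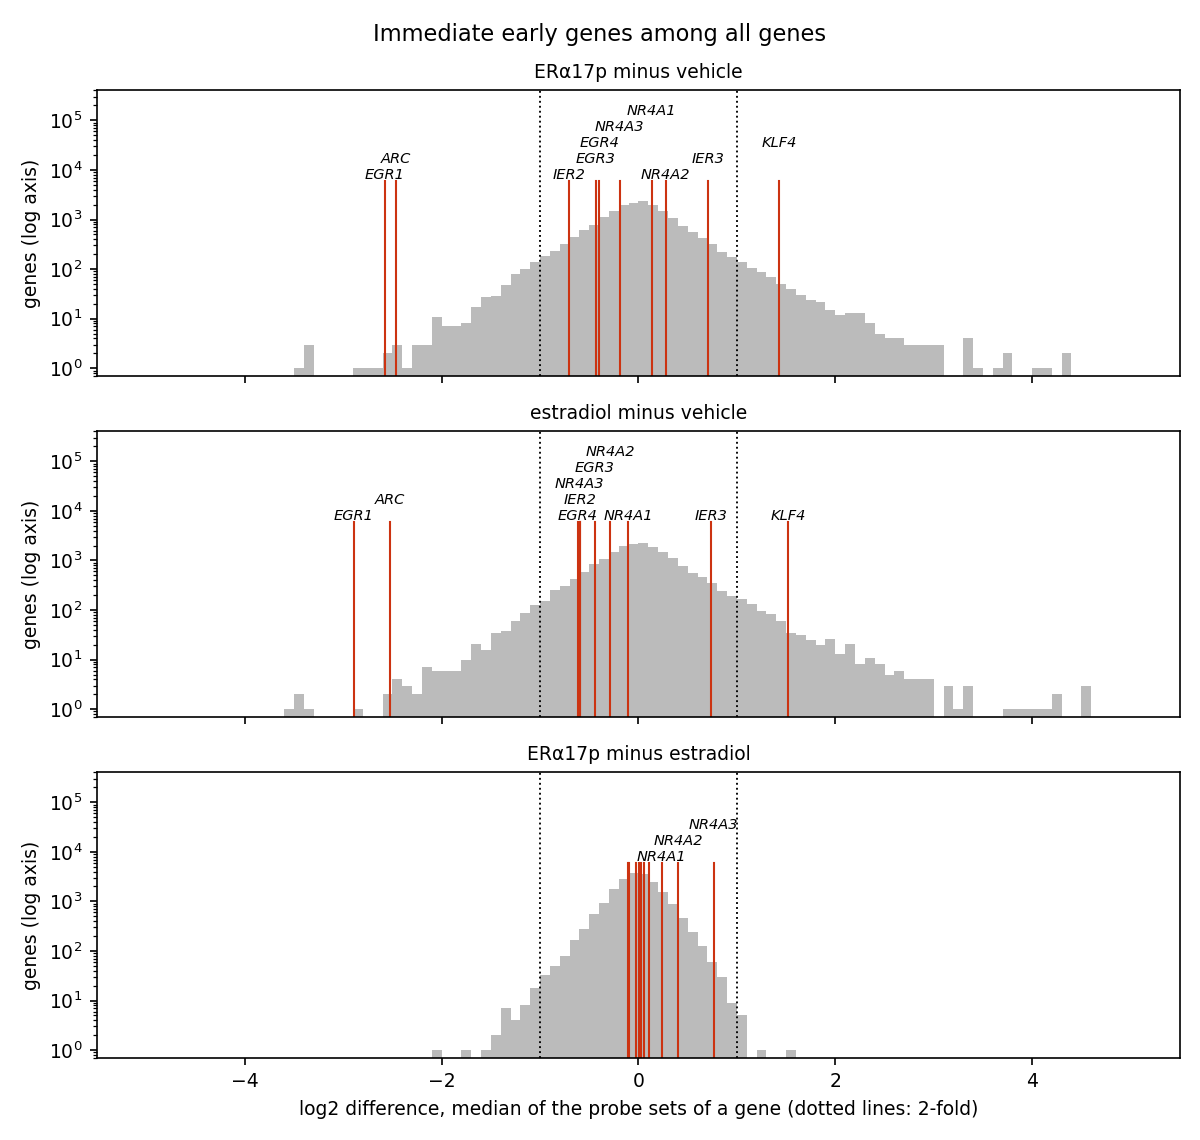
Histograms of the log2 difference (horizontal axis, median of a gene's probe sets) over 19775 genes on a log count axis, with the members as red lines and 2-fold as dotted lines. EGR1 and ARC lie in the low tail against vehicle (-2.58 and -2.46 for ERα17p, -2.89 and -2.52 for estradiol), KLF4 lies past 2-fold on the high side, and between the treatments, where the NR4A genes alone are named, all 10 lie inside 2-fold.

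The NR4A receptors did not share the pattern of EGR1. NR4A1, also called Nur77 and known in cell death and metabolism, had medians of 0.13 with ERα17p and -0.18 with estradiol, against 0.00 with vehicle. Its 3 probe sets disagreed against vehicle, from -0.34 to 0.30 for ERα17p and from -0.87 to 0.10 for estradiol. With the single probe set whose ID does not end in _x_at or _s_at, the estradiol difference of NR4A1 was 0.10 in place of -0.10. NR4A2, or Nurr1, a factor of dopamine neurons, had medians of 0.46 with ERα17p and 0.00 with estradiol, against 0.26 with vehicle. Its 3 probe sets differed from vehicle by 0.03 to 0.42 for ERα17p and by -0.37 to 0.07 for estradiol. Its median differences were 0.27 and -0.29, and the ERα17p value was 0.56 after quantile normalisation. NR4A3, or NOR1, had medians of 0.19 with ERα17p and -0.49 with estradiol, against 0.03 with vehicle. Its 3 probe sets differed from vehicle by -0.31 to 0.19 for ERα17p and by -0.96 to -0.03 for estradiol. Its median differences were -0.19 and -0.60. The ERα17p value was -0.01 after quantile normalisation. The estradiol value passes 1.5-fold, but fell short of it when probe sets were averaged (-0.53) and without probe sets in _x_at or _s_at (-0.50).

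In the direct comparison of ERα17p with estradiol, which does not use the vehicle array, the gene medians differed in the NR4A genes more than in the other members. No member passed 2-fold, a difference that 0.0354% of all genes reached on the high side and 0.212% on the low side. The medians of NR4A1, NR4A2 and NR4A3 were 0.24, 0.40 and 0.77 higher on the ERα17p array than on the estradiol array, while the other 7 members lay between -0.11 and 0.11. Of the 9 NR4A probe sets 8 were higher on the ERα17p array, beside 49.2% of all probe sets on the array. So were 5 of the 7 EGR probe sets and 15 of the 21 probe sets of all members. Probe sets of 1 gene are not independent. NR4A3 was the member past 1.5-fold on the high side (1.70-fold), against 1.29% of all genes, and 0.298% of genes lay higher. NR4A2 was at 1.32-fold, with 4.73% of genes higher, and NR4A1 at 1.18-fold, with 13.6% higher. This grouping was seen in the values first and is a description.

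For NR4A1 the 3 probe sets were at 0.35, -0.10 and 0.13 with ERα17p, against -0.18, -0.30 and -0.10 with estradiol, so ERα17p was the higher in each. For NR4A2 all 3 probe sets gave the same direction, with ERα17p array values of 0.54, 0.40 and 0.46 against estradiol array values of -0.03, 0.00 and 0.11. For NR4A3, probe set 209959_at was at 0.27 on the ERα17p array against -0.49 on the estradiol array, and 207978_s_at was at 0.19 against -0.59. The last probe set, 216979_at, ran the other way, at -0.27 on the ERα17p array against 0.00 on the estradiol array. With the mean in place of the median of its probe sets the NR4A3 difference was 0.43, and without probe sets whose IDs end in _x_at or _s_at it was 0.25, both inside 1.5-fold. Without such probe sets NR4A1 was at 0.20. All 3 probe sets of NR4A2 have such IDs, so NR4A2 could not be read that way. Probe sets of 18S ribosomal RNA were at a median difference of 0.53 between ERα17p and estradiol. For ACTB the 3′ probe set minus the 5′ probe set gave 0.31 with ERα17p, against -0.27 with estradiol, and for GAPDH it gave 0.15, against 0.06. Their part in the NR4A differences was not tested.

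**Figure D3:**
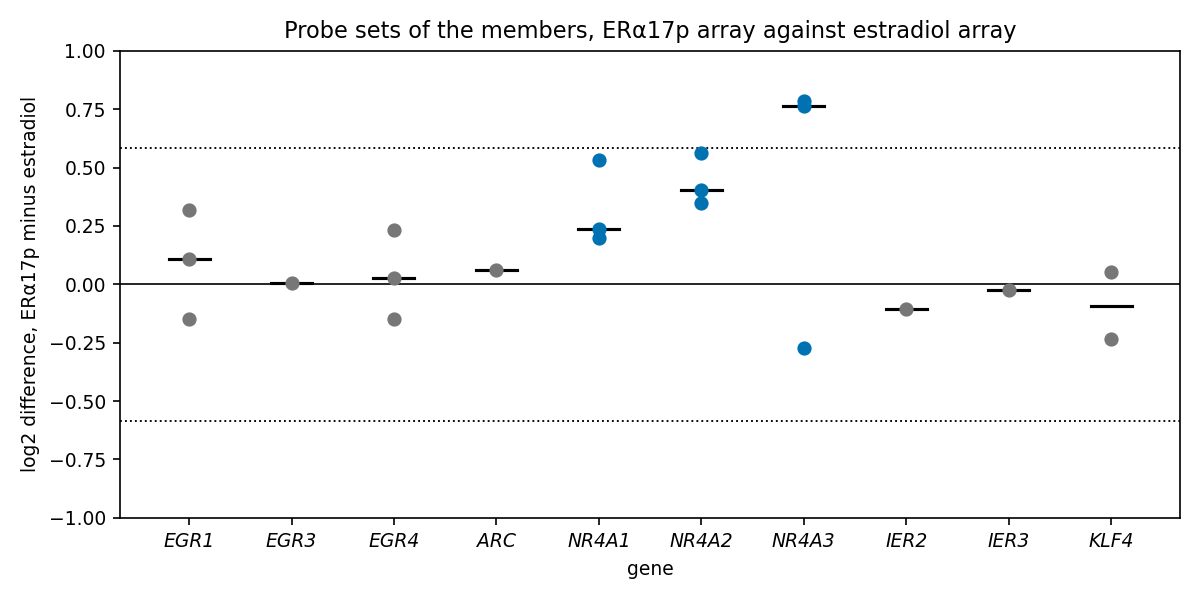
Log2 difference of the ERα17p array from the estradiol array (vertical axis) for each of the 21 probe sets, with a bar at each gene's median, NR4A genes in blue and 1.5-fold as dotted lines. The medians of NR4A1, NR4A2 and NR4A3 lie at 0.24, 0.40 and 0.77, and those of the other 7 genes lie between -0.11 and 0.11.

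Other immediate early genes outside the AP-1 subunits were mixed, with the low side the larger. Of 28 listed, 26 were analysed here. Against vehicle 4 were at least 2-fold lower and 2 higher on the ERα17p array (median -0.26), and 4 were lower and 1 higher on the estradiol array (median -0.32). The shares of all genes were 2.48% lower and 3.34% higher for ERα17p, and 2.18% and 3.94% for estradiol. CSRNP1, a nuclear protein first found as induced by AXIN1, was at -0.02 with ERα17p and -0.21 with estradiol, against 1.51 with vehicle. RGS2, which shortens G protein signals, was at 0.16 and 0.09 on the ERα17p and estradiol arrays, against 1.56 on the vehicle array. PPP1R15A (GADD34), which directs a phosphatase to the initiation factor eIF2α, differed from vehicle by -1.29 for ERα17p and -1.15 for estradiol. PTGS2, the inducible cyclooxygenase, went the other way, with differences of 2.75 and 2.64. The vehicle array was the outlying one for these 4 genes, which were named for having the largest differences from vehicle. EGR1, ARC and KLF4 were likewise the members past 2-fold from vehicle, so the shared form is not separate evidence. Between the treated arrays 0 of the 26 passed 1.5-fold, near the shares of all genes, 2.04% lower and 1.29% higher.

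Genes of the machinery known to drive the members were read next. The shares of all genes at least 2-fold from vehicle, to set beside the counts, were 2.48% lower and 3.34% higher for ERα17p. For estradiol they were 2.18% and 3.94%. Of 6 genes for SRF, ternary complex factors and the actin-sensing MRTF coactivators, 0 passed 2-fold under either treatment, too few genes to tell 0 from those shares. Their medians were 0.04 for ERα17p and 0.10 for estradiol. ELK1 was highest at 0.60 and 0.64, with 1 of its probe sets at 1.36 and 1.46, and SRF itself was at 0.16 and 0.28. Of 9 analysed genes for CREB, its relatives and coactivators, CREB5 was the one past 2-fold, at -1.28 and -1.53, with its 4 probe sets between -2.06 and -0.29 for ERα17p and between -2.52 and -0.23 for estradiol. CREB1 was at 0.15 and 0.52. Of 13 analysed genes of the ERK cascade, 2 were at least 2-fold higher with ERα17p and 1 with estradiol, with 0 lower. RPS6KA3, the kinase RSK2 that phosphorylates SRF and CREB, was at 2.23 and 2.18, and RPS6KA2 at 1.06 and 0.64, with its 3 probe sets between 0.00 and 3.22 for ERα17p. MAP2K1, the kinase MEK1, was at 0.77 and 0.74, and RPS6KA1 at -0.83 and -0.77. Transcript values say nothing of kinase activity.

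The partners and reported targets of the members were read too. By gene median, none of NAB1, NAB2, RXRA, RXRB and RXRG, the EGR corepressors and the retinoid receptors that can pair with NR4A1 and NR4A2, passed 1.5-fold under either treatment, and their medians were 0.20 for ERα17p and 0.25 for estradiol. A list this short cannot tell none from the shares of all genes. Single probe sets went further, up to 1.42 and 1.45 for NAB1 and up to 1.20 and 1.52 for RXRB. Of 10 analysed genes reported as EGR1 targets, 0 were at least 2-fold lower and 3 higher on the ERα17p array. On the estradiol array 1 was lower and 3 higher. The shares of all genes were 2.48% lower and 3.34% higher for ERα17p, and 2.18% and 3.94% for estradiol. The adhesion molecule ICAM1 differed by 1.90 and 2.77. VEGFA, which drives vessel growth, differed by 1.86 and 1.72, and F3, tissue factor, by 1.09 and 1.25. The growth factor gene PDGFA was at -0.71 and -1.10. The medians were 0.09 and 0.32. The list was written from general knowledge, and many of its genes have other inducers. Among 13 relatives of KLF4, KLF10 alone was at least 2-fold higher on the ERα17p array (1.13, and 0.90 for estradiol). KLF5 alone was at least 2-fold lower on the estradiol array (-1.08, and -0.74 for ERα17p). With 13 genes, 1 past 2-fold cannot be told from the shares of all genes. KLF2 was at -0.94 with ERα17p and -0.41 with estradiol, and KLF3 at 0.84 and 0.92. SRF, NAB2, KLF2, KLF6 and KLF10 each stand in more than 1 of these lists.

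**Figure D4:**
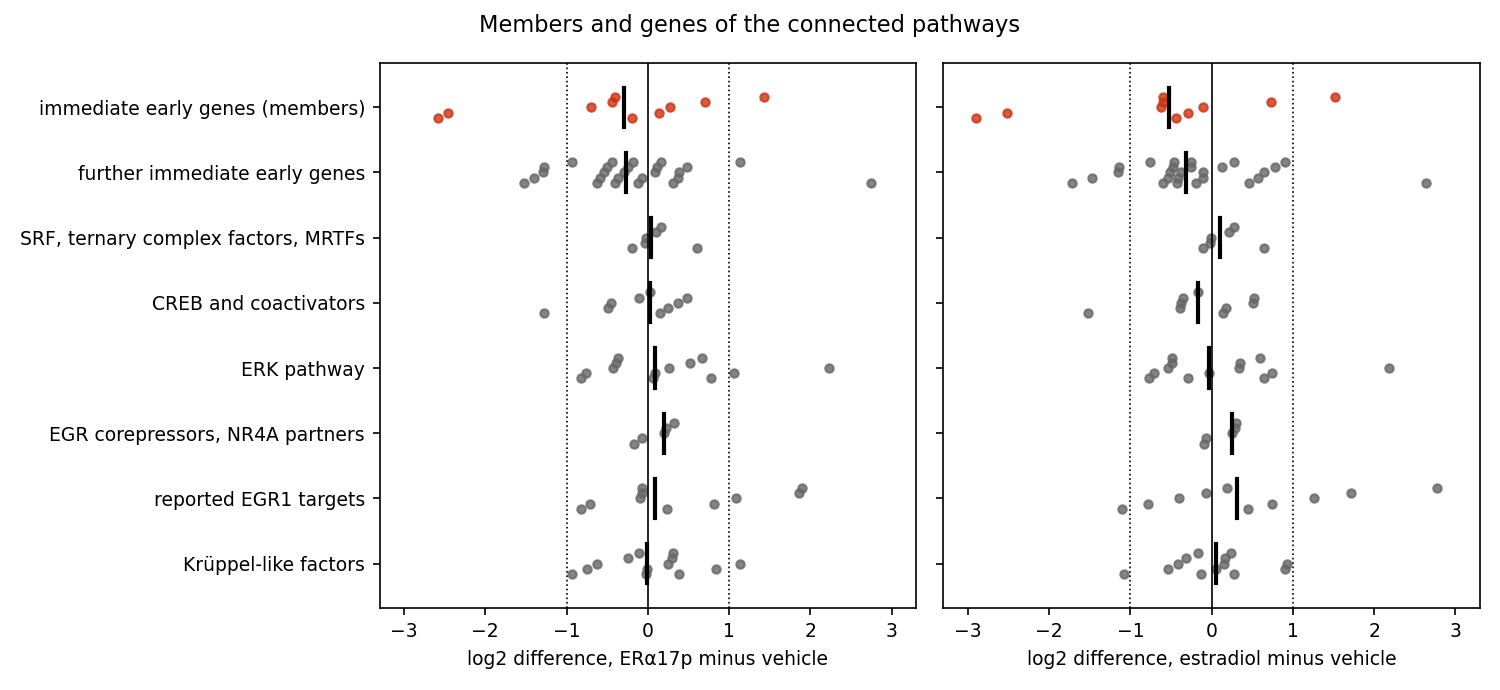
Log2 differences from vehicle (horizontal axis) of the members, in red, and of 7 connected gene lists, in grey, for ERα17p on the left and estradiol on the right, with a point for each gene, a bar at each list's median and 2-fold as dotted lines. The members have medians of -0.30 and -0.52. The SRF list, with medians of 0.04 and 0.10, has 0 of 6 genes past 2-fold. Among all genes 2.48% were lower and 3.34% higher for ERα17p, and 2.18% and 3.94% for estradiol, and 6 genes are too few to tell 0 from these shares.

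The genes most like EGR1 over the 3 arrays, by Euclidean distance among genes with at least 2 probe sets, were ZNF114 (0.56), HNRNPA1 (0.66) and RIMS2 (0.78). ZNF114, a zinc finger gene, was at -0.33 with ERα17p and 0.01 with estradiol, against 2.47 with vehicle. HNRNPA1, a splicing factor with near-identical pseudogene copies, was at -0.11 and -0.17 on the ERα17p and estradiol arrays, against 2.15 on the vehicle array. RIMS2 had probe sets that ranged from -2.73 to -0.02 for ERα17p. The genes most like NR4A1 were ANPEP, MSH3 and CYB5RL, at distances of 0.02 each, with medians between -0.19 and 0.14 on every array. A likeness over 3 arrays is a weak description.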

How the data were processed

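Biotin-labelled RNA of 3 samples was read on the Affymetrix HG-U133 Plus 2 chip (54675 probe sets), 1 array per group. RMA, with no version, is named in the submitters' processing notes. The deposited values were taken as log2 because RMA gives that scale. They had also been centred per probe set by a step that no source describes: each array's median was 0, and 7.08% to 8.54% of values were exactly 0. Symbols came from the platform annotation, and all 10 members matched RefSeq's table. Differences were taken per probe set, and a gene's value is the median over its probe sets, so it can differ from the difference of the array medians. A gene was called at 2-fold, or 1.5-fold where stated. The members and lists were chosen with earlier results of these data known. The text names every member, up to 4 genes of each list with the largest difference from vehicle, and the 3 genes most like EGR1 and NR4A1. The number of arrays limits the precision. The calculation was tested on simulated arrays that all had the spread of the ERα17p array. That checks the calculation and not the calls made against the wider vehicle array. Python 3.11.15, numpy 2.4.6, pandas 2.3.3 and matplotlib 3.10.9 were used. Alternatives were quantile normalisation, scaling each array to a common interquartile range, the mean of probe sets, leaving out probe sets with IDs in _x_at or _s_at (which can match several transcripts), the reference level taken for vehicle, and 1.5-fold.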

Additional observations from a re-analysis of the deposited data

How the results depend on the processing

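No paired analysis was possible because each group has 1 array and no test was run. EGR1 and ARC stayed at least 2-fold lower and KLF4 at least 2-fold higher than vehicle, under both treatments, with quantile normalisation, scaling to a common interquartile range and the mean of probe sets. Without probe sets in _x_at or _s_at 6 members remained, and EGR1, KLF4, NR4A2 and IER3 were not among them. Of the 6, 1, ARC, passed 2-fold under each treatment. With the reference level taken for vehicle 0 members passed 2-fold. Then 7 of 10 members kept their sign under each treatment. For ERα17p the values of EGR1 (0.16), EGR3 (0.06) and NR4A3 (0.19) changed sign. For estradiol those of EGR3 (0.05) and IER2 (0.04) did, and NR4A2 was at 0. The median over the members was 0.15 for ERα17p and -0.00495 for estradiol. The reference level may itself include these arrays. At 1.5-fold the members called were 5 for ERα17p, 7 for estradiol and 1 between the treatments. Over all genes the count past 2-fold was 1152 for ERα17p, 1211 for estradiol and 49 between the treatments. It was 692, 710 and 262 after quantile normalisation, 3636, 3769 and 659 at 1.5-fold, and 13 and 30 against the reference level. On the vehicle array 640 genes lay at least 2-fold from that level. Scaling gave 81 between the treatments. Between the treatments 42 genes were lower and 7 higher, or 181 and 81 after quantile normalisation. A shift was counted as small when it was under 0.254, the SD over all genes of the difference between the treated arrays, since no replicate spread exists.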
